A study of Mus musculus with 15 samples.

Results

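The interval between 4 and 6 weeks of age was examined in islets of NOD mice, by comparing 3 mice of 6 weeks with 3 mice of 4 weeks, which are 6 of the 15 mice sequenced. The genes described are those that differed over this interval outside the genes of DNA replication and mitosis: the endocrine, exocrine and stromal genes, and any others that passed the tests. All animals were untreated female NOD/ShiLtJ mice from a specific pathogen-free facility, a strain that develops spontaneous autoimmune diabetes, so the groups differ in age alone as far as the labels say and no other strain was part of the comparison. Islets were released from the pancreas with collagenase, and each library was made from the polyadenylated RNA of the islets of 1 mouse. The other 9 mice, 3 each of 8, 10 and 12 weeks, served to estimate the spread between mice and to follow the same genes later. The labels name no extraction, sequencing or collection batch, and no litter or hour of collection.

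Islets are small endocrine organs within the exocrine pancreas. Beta cells make insulin (Ins1, Ins2) and amyloid polypeptide (Iapp), alpha cells glucagon (Gcg), delta cells somatostatin (Sst) and PP cells pancreatic polypeptide (Ppy). Each islet has a dense capillary bed that lays down a basement membrane of collagen IV and laminins, a sheath of Schwann cells, and acinar tissue around it. In the weeks after weaning, when food changes from milk to chow, beta cells divide less and acquire the gene expression of mature, glucose-responsive cells. Proinsulin folds in the endoplasmic reticulum with the help of chaperones and disulphide isomerases, whose genes the unfolded protein response controls.

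The 6 libraries held between 25850117 and 41616275 counts in genes, and 16554 of the 48709 genes listed had enough counts to be tested. Counting 3 reads as the lowest level that can be told from 0, this depth allows levels down to between 0.0789 and 0.128 CPM (counts per 1e6 counts) per library, for counting error only. Mice of the same age differed far beyond counting noise, the chi-square of a pair divided by its degrees of freedom being 18.8 to 44.1. The endocrine identity of the tissue was plain: the 8 tested hormone genes together made up between 294664 and 329429 CPM in each of the 6 mice. CPM values are counts over the library total scaled by TMM factors, log2 fold changes are 6 against 4 weeks from edgeR's quasi-likelihood fit with their standard errors (SE), and group values are means ± SD of 3 mice. Rose and fell are used for genes with a Benjamini-Hochberg adjusted p under 0.05, and higher and lower for the rest. An exact permutation test of 3 against 3 mice cannot give a p below 0.1, so single genes rest on the fit.

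Several libraries stood apart in genes of other tissues, in ways that did not follow age. The 43 acinar enzyme genes listed, tested or not, summed to 2437, 20191 and 2805 CPM in the 3 mice of 4 weeks. In the mice of 6 weeks they summed to 17496, 4218 and 9481 CPM, an 8.28-fold range over both ages. T and NK cell genes were high in 4 weeks replicate 1 and 6 weeks replicate 3, at 131 and 133 summed CPM, and ranged from 10.9 to 45.2 in the other 4 mice. Interferon-stimulated genes were highest in the same pair of mice, at 2399 and 2106 summed CPM against 662 to 1079 in the others. 6 weeks replicate 2 alone carried genes of the intestinal epithelium, with 540 counts of Apoa4, 461 of Alpi and 121 of Fabp1, each of which had 0 counts in the other 5 libraries. In 6 weeks replicate 3 several clock genes, among them Dbp and Arntl, were far from those of every other mouse, as described further on. The part of these differences in the results was not tested, and the counts and values most affected by one of these mice are also given without it.

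**Figure D1:**
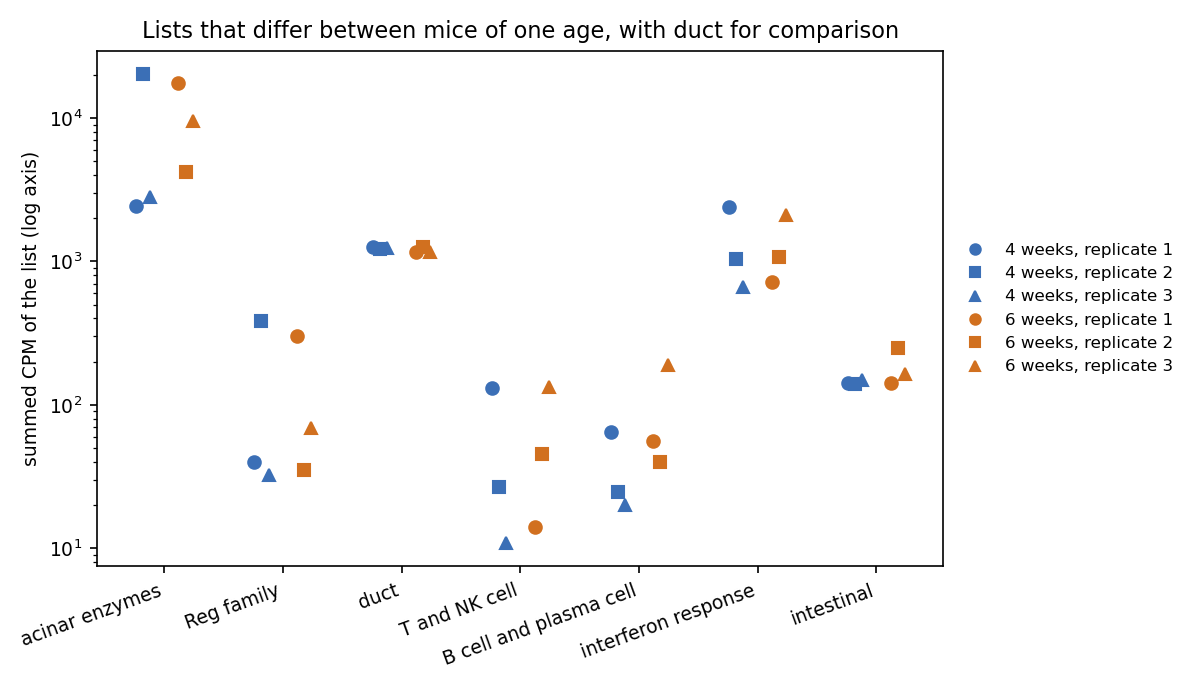
Summed CPM (log axis) of the members of 7 gene lists in each mouse of 4 and 6 weeks, with 1 point a mouse and the marker shape giving the replicate. The acinar sums of both ages interleave between 2437 and 20191 CPM, T and NK cell genes are high in 1 mouse of each age, and the intestinal list is highest in 6 weeks replicate 2.

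Outside the cell cycle, the genes that passed adjustment were 3 genes of the endoplasmic reticulum, 3 red-cell globins, Wdhd1 and Zfp367, all lower at 6 weeks, and Bcas3, which was higher. In all, 480 genes (2.9% of those tested) had a fold change of at least 1.5 and an unadjusted p under 0.05, the threshold the study used, 191 of them higher (1.15%) and 289 lower (1.75%) at 6 weeks. The cell cycle list held 162 of the 289, with none of its 223 tested members higher at that threshold and a median log2 fold change of -1.03, against 0.01 over all genes tested. The remaining 318 genes were 191 higher and 127 lower, and in 236 of them the mice of both ages did not overlap, which was so in 17.6% of all genes tested. An unadjusted p under 0.05 alone was reached by 1435 genes (8.67%), where 828 would be expected by chance. After Benjamini-Hochberg adjustment 15 genes (0.0906%) remained, 14 lower and 1 higher, and 9 of these lay outside the cell cycle list.

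**Figure D2:**
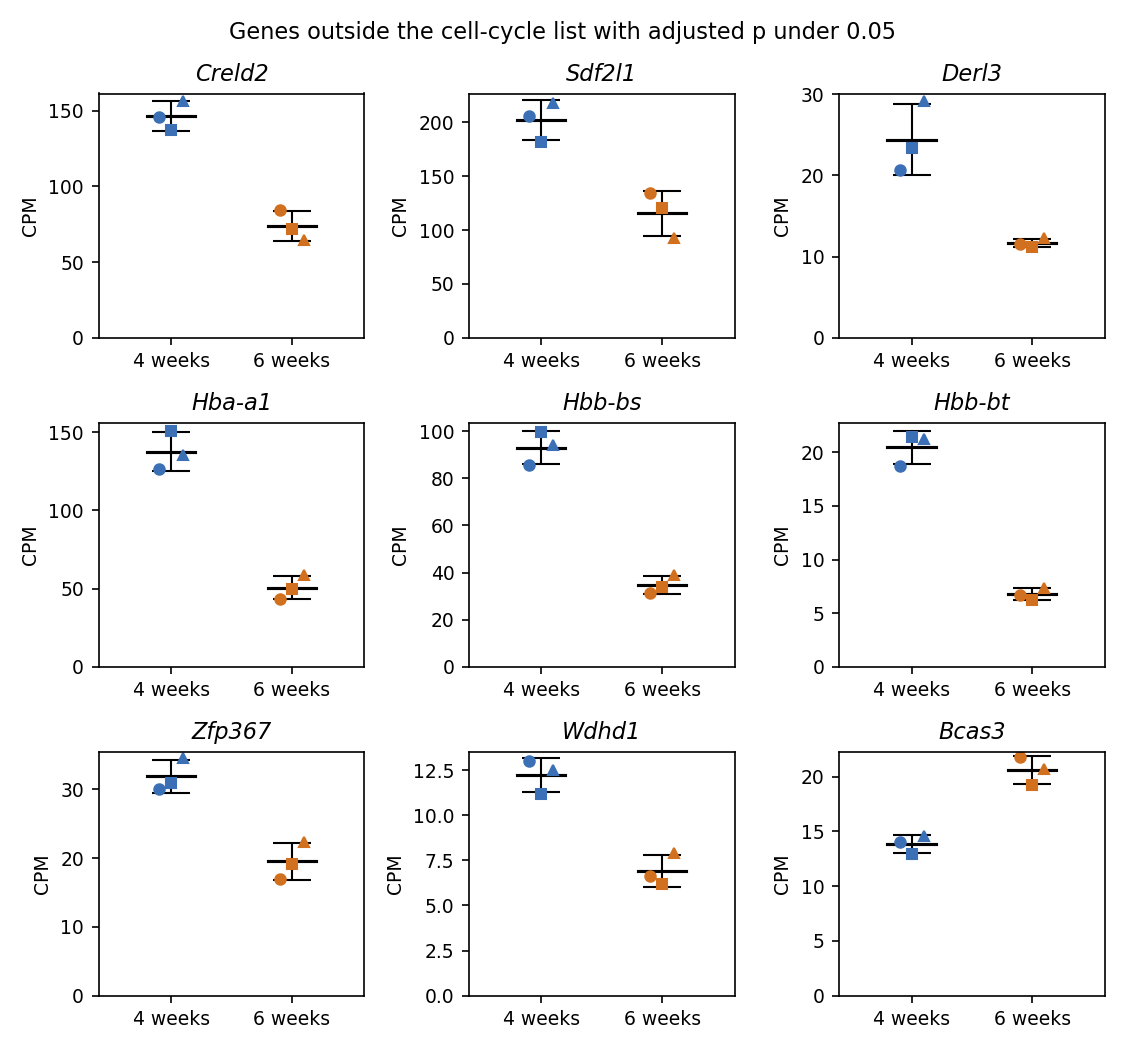
CPM of the 9 genes outside the cell cycle list with an adjusted p under 0.05, in each mouse of 4 and 6 weeks, with the mean and SD of 3 mice as bars. The ages do not overlap in any of the 9, and Bcas3 is the only one that is higher at 6 weeks.

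Creld2 (chr15:88819646-88826681 on mm10, + strand), which encodes a disulphide isomerase-like protein induced by endoplasmic reticulum stress, had the smallest p of all genes tested. Its level was 146, 137 and 157 CPM in the mice of 4 weeks and 84.5, 72.0 and 64.7 CPM in those of 6 weeks. It fell by 0.99 on the log2 scale (SE 0.10, adjusted p = 0.00598 in edgeR's quasi-likelihood test), and every mouse of 6 weeks lay below every mouse of 4 weeks. The adjusted p of Creld2 stayed under 0.05 in 12 of 13 alternative fits, the exception being 0.0849 without 6 weeks replicate 2. Sdf2l1 and Derl3, of the same compartment, passed too. Sdf2l1 (chr16:17130138-17132383, - strand), part of a luminal chaperone complex, went from 206, 182 and 218 CPM to 134, 120 and 93.0 CPM (log2 fold change -0.80 ± 0.13, edgeR adjusted p = 0.0466). Derl3 (chr10:75893398-75895941, + strand), a membrane protein of the pathway that returns misfolded proteins to the cytosol for degradation, went from 20.7, 23.3 and 29.2 CPM to 11.6, 11.2 and 12.3 CPM (-1.07 ± 0.17, edgeR adjusted p = 0.0466). Both were less firm than Creld2, with adjusted p under 0.05 in 3 of 13 alternative fits for Sdf2l1 and in 4 of 13 for Derl3.

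The promoters of these genes are shown because several carry the endoplasmic reticulum stress response element (ERSE), the sequence through which ATF6 and XBP1 with NF-Y are known to act. Sequences are from RefSeq on GRCm38.p6, the C57BL/6J reference and not NOD, and are printed 5′ to 3′ on the gene's own strand, trimmed to the bases before the gene as the count table annotates it. Capitals mark a match on either strand to the searched ERSE, CCAAT and CCACG with 9 bases of any kind between them.
Creld2 (chr15:88819396-88819645, + strand): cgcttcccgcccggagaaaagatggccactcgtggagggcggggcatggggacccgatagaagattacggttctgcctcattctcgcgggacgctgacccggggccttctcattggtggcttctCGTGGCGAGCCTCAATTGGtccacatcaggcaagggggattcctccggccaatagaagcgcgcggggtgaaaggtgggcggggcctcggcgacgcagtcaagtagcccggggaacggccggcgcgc
Derl3 (chr10:75893148-75893397, + strand): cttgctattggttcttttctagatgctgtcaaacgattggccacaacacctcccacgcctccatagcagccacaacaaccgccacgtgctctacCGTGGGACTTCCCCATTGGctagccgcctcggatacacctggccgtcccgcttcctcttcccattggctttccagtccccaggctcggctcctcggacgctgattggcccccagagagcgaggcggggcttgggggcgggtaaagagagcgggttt
Hsp90b1 (chr10:86705510-86705694, - strand): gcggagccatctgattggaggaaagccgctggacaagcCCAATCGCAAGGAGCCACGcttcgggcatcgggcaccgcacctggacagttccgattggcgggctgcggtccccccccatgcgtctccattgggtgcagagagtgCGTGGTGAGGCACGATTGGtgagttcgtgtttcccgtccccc
Pdia6 (chr12:17266339-17266544, + strand): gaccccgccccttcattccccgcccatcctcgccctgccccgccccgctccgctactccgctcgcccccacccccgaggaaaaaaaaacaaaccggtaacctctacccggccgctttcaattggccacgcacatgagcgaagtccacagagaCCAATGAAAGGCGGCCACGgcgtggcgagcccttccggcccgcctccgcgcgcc

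In the windows from 250 bases before to 50 bases after the RefSeq starts, 37 of 26993 genes held an ERSE in at least 1 of their promoters, which is 0.137% of genes. Of the 30 members of the unfolded protein and heat shock list with a promoter in the table, 8 held one: Hspa5, Hsp90b1, Pdia6, Calr, Canx, Dnajc3, Creld2 and Syvn1. The Sdf2l1 window held none. Of all holders, 20 were tested for expression, 8 of them lower and 0 higher at an unadjusted p under 0.05, with a median log2 fold change of -0.27, against 4.87% of all tested genes lower and 3.79% higher at that p. Of these 8, Creld2, Hsp90b1, Pdia6, Hspa5 and Calr are on the list. The others, among 12 tested holders outside it, are Derl3, Alg12 and Hnrnpa3, the last chosen after its values were seen. The list was chosen with earlier results of these data known, so these counts do not test the element. The shorter element ERSE-II (ATTGG and CCACG with 1 base between, both strands) was held by 12 genes, 0.0445% of those with a promoter, among them Dnajb11 and Herpud1 of the list, and 4 of its 8 tested holders were lower. Outside the list, Alg12, chosen after its values were seen, shares the Creld2 element because the genes are divergent, and it differed by -0.26 ± 0.09 (unadjusted p = 0.0144, adjusted p = 0.382). A match is a run of letters, and no binding was measured.

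Of the 35 genes of the unfolded protein and heat shock list, 11 were lower and 1 higher at an unadjusted p under 0.05. The shares over all tested genes were 4.87% and 3.79%. Without overlap between ages, 12 were lower and 1 higher (background 9.28% and 8.34% of tested genes). The 11 are chaperones, isomerases and their helpers of the endoplasmic reticulum lumen. Hsp90b1, which encodes the luminal HSP90 chaperone, measured 1568, 1547 and 1621 CPM at 4 weeks and 1274, 1141 and 1095 CPM at 6 weeks (-0.43 ± 0.09, unadjusted p = 0.000263, adjusted p = 0.0839). The disulphide isomerase Pdia6, the fourth gene by p, was at 775, 729 and 825 CPM and then at 611, 552 and 461 CPM (-0.52 ± 0.11, adjusted p = 0.0971). Hspa5, the abundant chaperone BiP, measured 2026 ± 181 CPM and 1539 ± 177 CPM (-0.40 ± 0.14, unadjusted p = 0.0119, adjusted p = 0.359). Hyou1, Dnajb11, Pdia4, Manf, Calr and Pdia3 differed by -0.47, -0.45, -0.44, -0.43, -0.27 and -0.25 on the log2 scale. The list's own median was -0.09, so the lower members were one section of it and not the whole. Xbp1 and Ddit3, which belong to the stress-signalling arms of the response, differed by 0.03 ± 0.09 and 0.12 ± 0.14, and Herpud1 by 0.10 ± 0.15. All 3 were chosen after their values were seen. Sesn2 was the one higher member, at 46.4 ± 3.01 and 53.1 ± 1.61 CPM. With each of the 6 mice left out in turn, between 10 and 12 members of the list were lower at that p, and at least 10 of the 11 were among them each time.

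**Figure D3:**
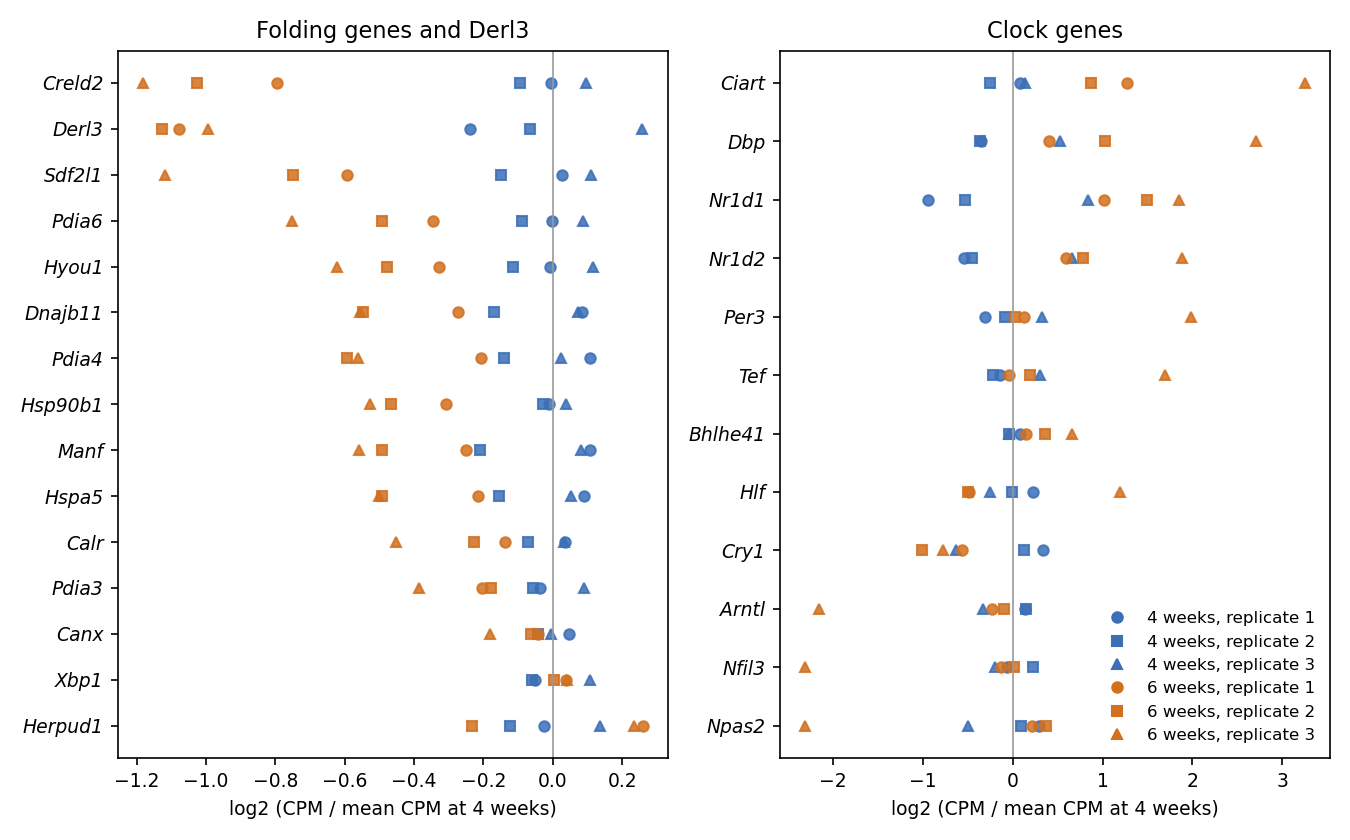
Log2 ratio of CPM to the mean of the mice of 4 weeks for 15 folding genes (left) and 12 clock genes (right), with 1 point a mouse, coloured by age and shaped by replicate. The folding genes from Creld2 to Pdia3 lie lower in all 3 mice of 6 weeks. Several clock genes, among them Dbp and Arntl, lie far from the other mice in 6 weeks replicate 3.

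The red-cell globins fell together. Hba-a1 (chr11:32283511-32284465, + strand), an alpha globin, measured 127, 151 and 135 CPM at 4 weeks and 43.5, 49.6 and 58.4 CPM at 6 weeks (-1.45 ± 0.22, edgeR adjusted p = 0.0356). The beta globins followed, Hbb-bs from 93.1 ± 7.16 to 34.6 ± 3.81 CPM (-1.43 ± 0.21, edgeR adjusted p = 0.0343) and Hbb-bt from 20.5 ± 1.54 to 6.77 ± 0.572 CPM (-1.60 ± 0.20, edgeR adjusted p = 0.015). In all 3 globins, no mouse of 6 weeks reached the lowest mouse of 4 weeks. Their adjusted p was under 0.05 in 7 of 13 alternative fits for Hba-a1 and Hbb-bs and in 8 for Hbb-bt. Hba-a1 and its near-identical copy Hba-a2 cannot be told apart with certainty, since Hba-a2 was given at most 4 counts in any of the 6 libraries. Alas2, the first enzyme of haem synthesis in red-cell precursors, was chosen after its values were seen and had 66, 61 and 56 counts at 4 weeks and 14, 39 and 28 at 6 weeks (-1.39 ± 0.32, adjusted p = 0.127). In bulk tissue, fewer cells of a type and less RNA per cell cannot be told apart, and this holds for every result on a cell type here. In the difference test against the 12 and 10 week mice, described further on, the globins had edgeR adjusted p values of 0.258 for Hbb-bt and 0.282 for Hba-a1 and Hbb-bs.

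The 3 other genes past the adjusted threshold outside the cell cycle list have different roles. Bcas3 (chr11:85353167-85826058, + strand), a cytoskeletal and autophagy-related protein, rose from 14.0, 12.9 and 14.5 CPM to 21.8, 19.3 and 20.7 CPM (0.57 ± 0.09, edgeR adjusted p = 0.0396). It then stood at 15.3 ± 1.71 CPM at 8 weeks and at 16.8 ± 0.706 CPM at 12 weeks. Wdhd1, a replisome-associated DNA binding protein, fell from 12.2 ± 0.950 to 6.90 ± 0.873 CPM (-0.83 ± 0.12, edgeR adjusted p = 0.0343), and Zfp367, a zinc finger protein, from 31.9 ± 2.42 to 19.5 ± 2.71 CPM (-0.71 ± 0.11, edgeR adjusted p = 0.0356). Wdhd1 acts in DNA replication although the cell cycle list did not hold it. The adjusted p was under 0.05 in 4 of 13 alternative fits for Bcas3, in 6 for Wdhd1 and in 7 for Zfp367. The 6 cell cycle genes with an adjusted p under 0.05 were Ect2, Anln, Cenpf, Pbk, Fam64a and Dscc1, at log2 fold changes of -1.46, -1.45, -1.68, -1.60, -1.69 and -2.17.

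Most endocrine genes did not differ beyond the spread between mice. Of the 8 tested hormone genes 1 was lower at an unadjusted p under 0.05, of 31 endocrine transcription factors 1, and of 44 genes of beta-cell maturation 3 were higher and 1 lower. Over all genes tested, 3.79% were higher and 4.87% lower at that p. Without overlap between the ages, 9 of the 44 maturation genes were higher and 3 lower, against 8.34% and 9.28% of all genes tested. On the length-corrected TPM scale, Ins2 stood highest at 234815 ± 10023 at 4 weeks and 254982 ± 11580 at 6 weeks, followed by Ins1 at 143432 ± 3659 and 142387 ± 668, Gcg at 62914 ± 1196 and 50745 ± 3846, Iapp at 32224 ± 1709 and 29784 ± 2036, and Sst at 22205 ± 1914 and 22451 ± 2148. That order was the same at both ages. The hormone at an unadjusted p under 0.05 was glucagon, and Gcg measured 46361, 51732 and 48784 CPM at 4 weeks and 42423, 39334 and 35885 CPM at 6 weeks, without overlap (-0.32 ± 0.14, unadjusted p = 0.0437, adjusted p = 0.553). It was lower again at each later age, at 30796 ± 3519 CPM at 8 weeks, 22237 ± 624 at 10 weeks and 18896 ± 3606 at 12 weeks. Ins1, Ins2, Iapp, Sst, Ppy and Pyy differed by -0.02, 0.11, -0.12, 0.01, -0.14 and -0.25 on the log2 scale, with overlapping mice of the 2 ages in each. Ghrl, ghrelin, was near the limit of detection, with 11, 3 and 33 counts at 4 weeks and 7, 4 and 11 counts at 6 weeks (-1.15 ± 0.91, unadjusted p = 0.232). Among transcription factors, Etv1 was the one lower member, at 83.5 ± 9.28 and 67.0 ± 11.3 CPM (unadjusted p = 0.0256, adjusted p = 0.475).

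Among maturation genes, Glp1r, the receptor for the incretin GLP-1, measured 126, 135 and 133 CPM at 4 weeks and 168, 182 and 171 CPM at 6 weeks (0.40 ± 0.15, unadjusted p = 0.0197, adjusted p = 0.436). The ion channel Trpm5, which may share reads with the overlapping gene Tssc4, measured 94.7 ± 3.60 and 137 ± 26.8 CPM, and Gad1, the GABA-making enzyme, 68.2 ± 4.37 and 95.0 ± 13.4 CPM. All 3 were higher in every mouse of 6 weeks. Left-out mice changed their number: between 0 and 3 members were higher at the same p. Textbook markers of maturity, chosen after their values were seen, were close to level, with Ucn3 at 445 ± 37.3 and 485 ± 10.3 CPM (0.12 ± 0.15) and Mafa at 374 ± 36.8 and 355 ± 68.6 CPM (-0.07 ± 0.21). Of 41 genes of perinatal or immature beta cells, 5 were lower and none higher at an unadjusted p under 0.05. The shares over all genes tested were 4.87% lower and 3.79% higher. Without overlap between the ages, 9 of the 41 were lower and 0 higher, against 9.28% and 8.34% of all genes tested. Oat, a mitochondrial ornithine aminotransferase, had 41.5, 37.8 and 40.2 CPM and then 26.0, 24.1 and 23 CPM (-0.71 ± 0.18, unadjusted p = 0.00179, adjusted p = 0.178). Igf2bp2, an RNA-binding protein of growing cells, went from 11.8 ± 2.03 to 8.35 ± 1.18 CPM, and Gli2, a hedgehog-pathway transcription factor, from 1.88 ± 0.318 to 1.05 ± 0.402 CPM. Ezh2 and Peg10 differed by -0.70 and -0.73, and Ezh2 is also a gene of dividing cells. The median of the immature list was -0.01, and between 2 and 6 members were lower with a mouse left out.

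**Figure D4:**
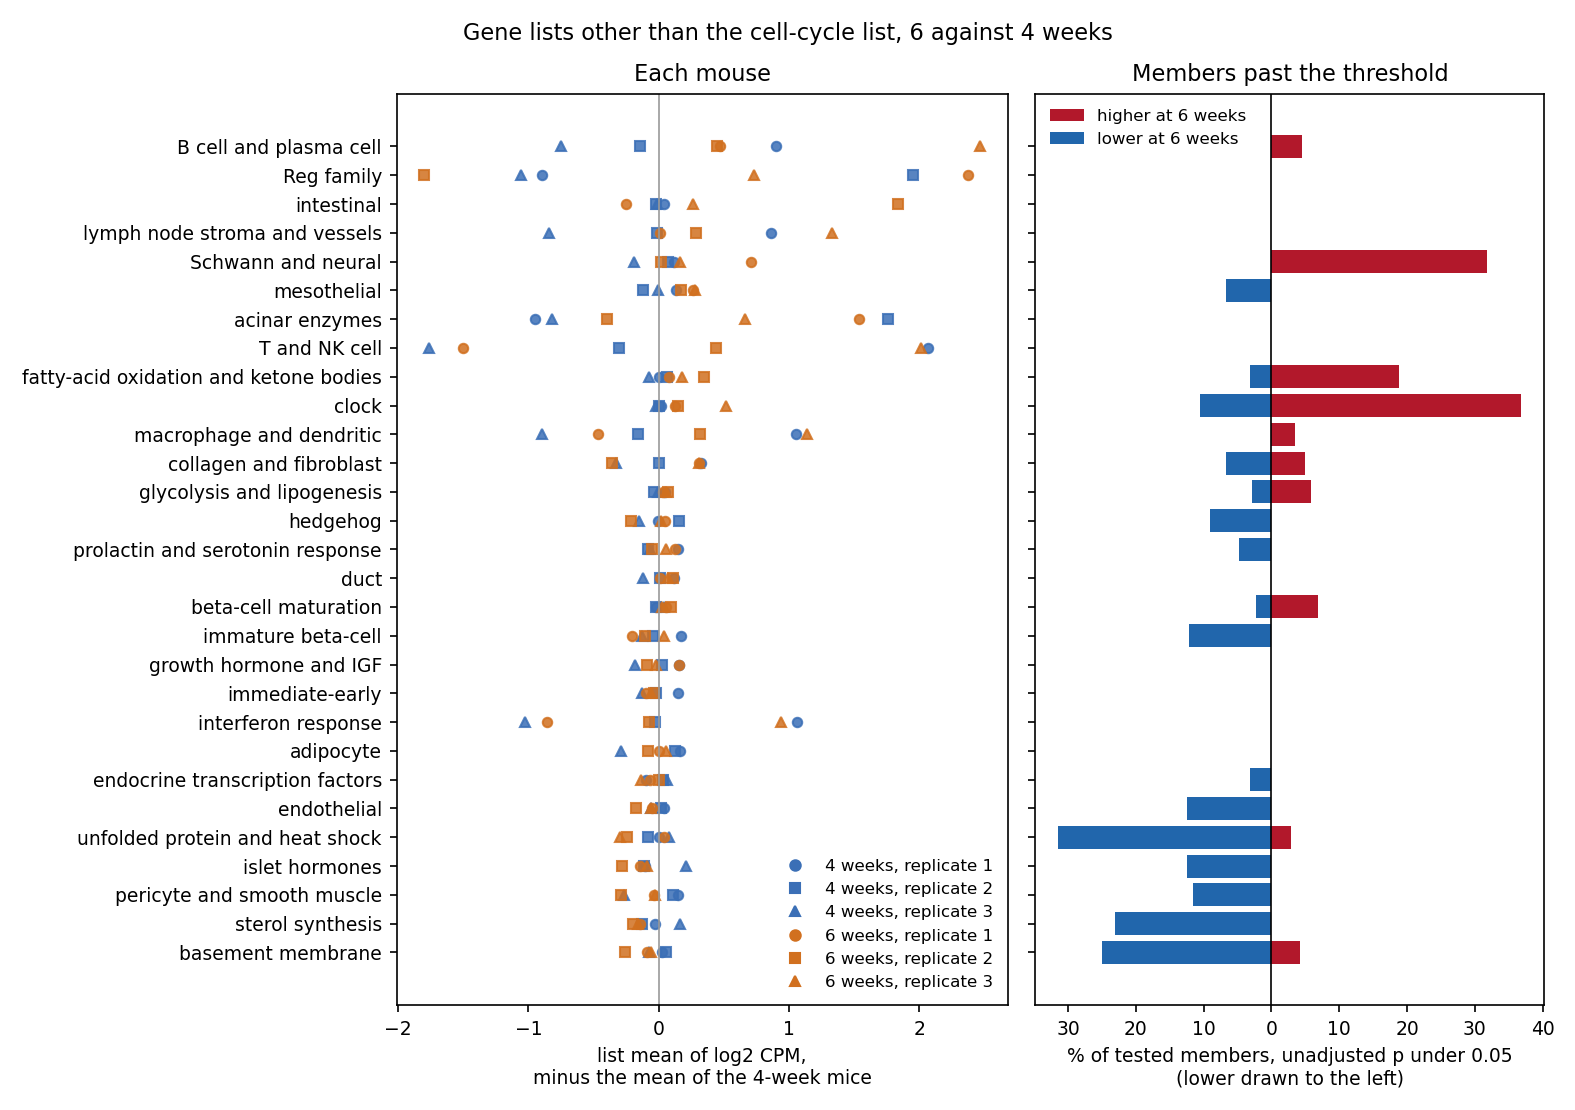
Left, mean log2 CPM of each of 29 gene lists in every mouse, minus the mean of the mice of 4 weeks; right, percentage of tested members of each list at an unadjusted p under 0.05, higher drawn to the right and lower to the left. The acinar, Reg and immune lists spread widely between mice of 1 age, whereas clock, Schwann and folding lists have the larger shares past the threshold.

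Exocrine genes did not differ between the ages beyond the spread between mice. None of 42 acinar enzyme genes, 6 Reg genes or 23 duct genes passed an unadjusted p under 0.05, although the medians were 0.24 for acinar and 0.73 for Reg genes. Pnlip, pancreatic lipase, chosen after its values were seen, measured 194, 1717 and 224 CPM at 4 weeks and 1530, 391 and 866 CPM at 6 weeks (0.38 ± 0.93, unadjusted p = 0.685). One mouse of each age, 4 weeks replicate 2 and 6 weeks replicate 1, was high in these enzymes and in Reg1, also chosen after its values were seen, which had 374 and 279 CPM there and 31.7 to 63.4 CPM in the other 4 mice. Without 4 weeks replicate 2 the acinar median moved to 1.96 with 17 of 42 genes higher, and without 6 weeks replicate 1 it moved to -0.39 with none. The duct keratin Krt19 had 3.49 ± 0.998 and 4.93 ± 1.75 CPM (0.51 ± 0.39, unadjusted p = 0.220).

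A part of the genes of the islet capillary bed and its basement membrane was lower at 6 weeks by small amounts, none with an adjusted p under 0.05. Of 24 basement membrane genes 6 were lower and 1 higher at an unadjusted p under 0.05, against 4.87% and 3.79% of all genes tested, and 8 were lower without overlap, against 9.28%, with a list median of -0.21. Col4a1 and Col4a2, the 2 chains of the main collagen IV network, led the list. Col4a1 measured 552, 589 and 569 CPM at 4 weeks and 454, 415 and 390 CPM at 6 weeks (-0.44 ± 0.09, unadjusted p = 0.000202, adjusted p = 0.0803). Col4a2, which adjoins and overlaps it on the chromosome, measured 316 ± 11.5 and 247 ± 8.54 CPM (-0.36 ± 0.07, adjusted p = 0.0803), and either value may hold reads of the other gene. Nid2, a linker of laminin and collagen IV, differed by -0.38 ± 0.12, and the laminin chains Lama5 and Lamc1 by -0.37 ± 0.13 and -0.22 ± 0.09. Without 6 weeks replicate 2, 3 members were lower at that p, all 3 among the 6.

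Among 40 endothelial genes 5 were lower and none higher at an unadjusted p under 0.05 (4.87% and 3.79% of all genes tested), and 12 were lower against 1 higher without overlap (9.28% and 8.34%). Cd93, a receptor of angiogenic endothelium, had 79.8, 75.6 and 72.5 CPM and then 61.4, 55.5 and 51.1 CPM (-0.44 ± 0.11, unadjusted p = 0.00198, adjusted p = 0.181). The other 4 were Nostrin, Robo4, Pecam1 and Tek, at -0.32, -0.23, -0.23 and -0.34. Kdr, the VEGF receptor of the same cells and chosen after its values were seen, measured 144 ± 6.06 and 143 ± 11.2 CPM (-0.01 ± 0.09), so the endothelial list was not uniformly lower. The number of lower members ranged from 1, without 4 weeks replicate 1, to 4 when a mouse was left out. Of 26 genes of pericytes and smooth muscle, 3 were lower: Rgs5 at 236 ± 11.8 and 190 ± 10.3 CPM (-0.31 ± 0.10), Tpm2 at -0.51 ± 0.22 and Mcam at -0.20 ± 0.09. None of these vascular genes had an adjusted p under 0.05.

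Of 60 collagen and fibroblast genes, 3 were higher and 4 lower at an unadjusted p under 0.05, with a median of 0.08, shares near the 3.79% and 4.87% of all genes tested. Col8a1, a short-chain collagen, measured 4.34, 5.04 and 3.55 CPM at 4 weeks and 8.91, 6.02 and 9.10 CPM at 6 weeks (0.89 ± 0.20, unadjusted p = 0.000609, adjusted p = 0.119), and the actin-binding Gsn 82.6 ± 11.9 and 117 ± 22.0 CPM. Eln, elastin, measured 45.8 ± 13.6 and 26.0 ± 6.17 CPM (-0.82 ± 0.29), and Aspn, a small leucine-rich matrix protein, 11.7 ± 1.80 and 7.87 ± 0.690 CPM (-0.57 ± 0.16). The fibrillar collagens Col1a1 and Col3a1, chosen after their values were seen, differed by 0.09 ± 0.38 and -0.15 ± 0.26. Of 15 tested genes of the mesothelium that covers the pancreas, 1 was lower and none higher at an unadjusted p under 0.05, while 10 had a log2 fold change above 0 and the median was 0.30. The lower one, Msln, was below its 4 week values in every mouse of 6 weeks (-0.72 ± 0.24, unadjusted p = 0.0114), at 138, 179 and 130 and then 68.2, 118 and 84.7 CPM. Msln was lower again at every later age, down to 18 ± 4.58 CPM at 12 weeks, whereas the list as a whole went the other way, from a mean log2 CPM of 0.40 ± 0.06 at 6 weeks to 1.83 ± 0.30 at 12 weeks.

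Schwann and neural genes were the stromal group with most members higher: 7 of 22 had an unadjusted p under 0.05 and none was lower, against 3.79% higher and 4.87% lower over all genes tested. The first 4 by p were the calcium-binding S100b, the cadherin Cdh19, the adhesion molecule L1cam and the potassium channel Kcna1, at 0.98 ± 0.30, 0.90 ± 0.28, 0.44 ± 0.14 and 1.14 ± 0.39. Sox10, the defining Schwann-lineage transcription factor, measured 3.33, 4.32 and 3.26 CPM at 4 weeks and 7.45, 3.87 and 5.01 CPM at 6 weeks, with the ages overlapping (0.58 ± 0.23, unadjusted p = 0.025). In Sox10, Kcna1 and Scn7a the highest value was in 6 weeks replicate 1, and with that mouse left out 2 members were higher. S100b overlaps Dip2a in the annotation and some of its reads may belong there.

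**Figure D5:**
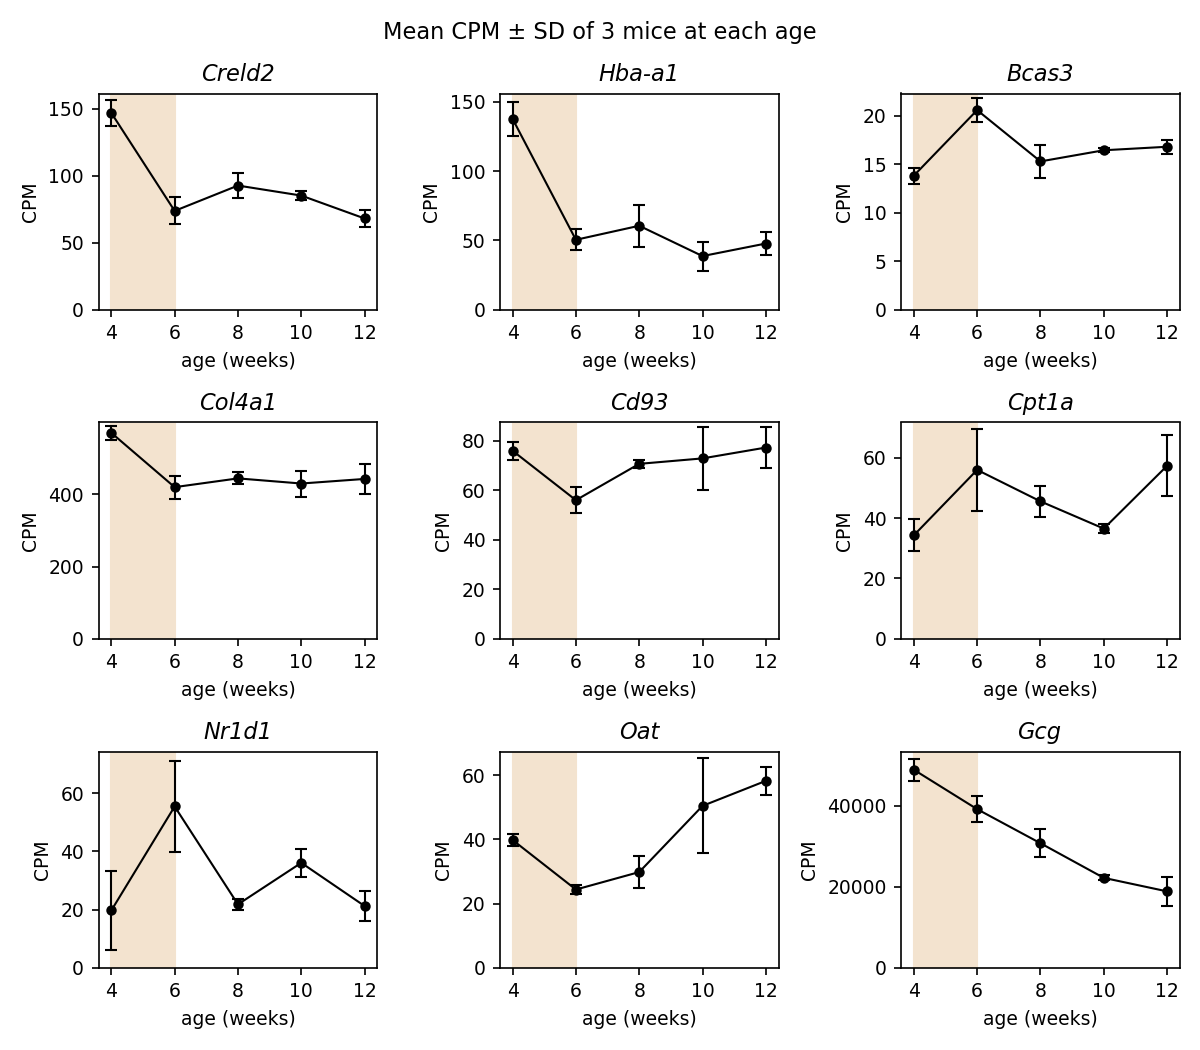
Mean CPM ± SD of 3 mice at 4, 6, 8, 10 and 12 weeks for 9 genes, with the interval from 4 to 6 weeks shaded. Creld2 and Hba-a1 drop within the interval and stay near the new level, Bcas3 and Nr1d1 are highest at 6 weeks, Oat is lowest at 6 weeks, and Gcg is lower at each successive age.

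Among metabolic genes, some of sterol synthesis were lower and some of fatty-acid oxidation higher, none with an adjusted p under 0.05. Of 26 sterol genes, 6 were lower and none higher at an unadjusted p under 0.05 (4.87% and 3.79% of all genes tested), 12 were lower without overlap (9.28%), and the median was -0.16. Idi1, which makes the isoprenoid building block dimethylallyl diphosphate, measured 52.2, 50.7 and 62.2 CPM and then 40.7, 35.1 and 39.6 CPM (-0.52 ± 0.11, unadjusted p = 0.000379, adjusted p = 0.0965). Fdps, farnesyl diphosphate synthase, and Hmgcs1, which makes the precursor of mevalonate, differed by -0.47 ± 0.12 and -0.35 ± 0.11, and Mvk, Ebp and Nsdhl by -0.33, -0.24 and -0.22. Srebf2, the regulator of the pathway, differed by -0.12 ± 0.06 and was chosen after its values were seen. Between 4 and 8 members were lower with a mouse left out.

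Of 32 genes of fatty-acid oxidation and ketone bodies, 6 were higher and 1 lower at an unadjusted p under 0.05, against 3.79% and 4.87% of all genes tested. Cpt1a, which controls entry of fatty acids into mitochondria, measured 33.5, 40 and 29.4 CPM at 4 weeks and 43.8, 70.7 and 53.3 CPM at 6 weeks (0.71 ± 0.17, unadjusted p = 0.00138, adjusted p = 0.157). Angptl4, a secreted inhibitor of lipoprotein lipase, measured 0.453 ± 0.277 and 1.32 ± 0.366 CPM (1.57 ± 0.40). Acaa2, Decr1 and Plin2 were higher by 0.60, 0.34 and 0.36, and Oxct1, which uses ketone bodies, lower at -0.16 ± 0.06. All 6 higher genes had their highest mean of the 5 ages at 12 weeks, where Angptl4 stood at 8.13 ± 1.30 CPM. Cpt1a, Acaa2 and Angptl4 were each highest in 6 weeks replicate 2 among these 6 mice, the library that also held intestinal genes, and without it 4 members of the list were higher. Among 34 genes of glycolysis and lipogenesis, 2 were higher and 1 lower, near the shares of 3.79% and 4.87% over all genes tested, with Pgk1 at -0.26 ± 0.07, Eno2 at 0.27 ± 0.10 and Pdk2, a brake on pyruvate oxidation, at 0.43 ± 0.18.

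Of 19 clock genes, 7 were higher and 2 lower at an unadjusted p under 0.05 (3.79% and 4.87% of all genes tested). Without 6 weeks replicate 3, 3 were higher and 2 lower. Nr1d1, which encodes the repressor REV-ERBα, measured 10.3, 13.6 and 35.2 CPM at 4 weeks and 39.7, 55.6 and 70.9 CPM at 6 weeks (1.49 ± 0.37, unadjusted p = 0.00156, adjusted p = 0.166). Dbp, an output transcription factor, measured 12.1, 12.0 and 22.1 CPM and then 20.3, 31.4 and 101 CPM (1.72 ± 0.48, and 0.75 without 6 weeks replicate 3), so its mice overlapped. Ciart, a repressor of the clock, measured 0.487, 0.385 and 0.507 CPM and then 1.11, 0.842 and 4.37 CPM (2.17 ± 0.58, adjusted p = 0.188), and its log2 fold change was 1.07 without 6 weeks replicate 3. Nr1d2, Per3, Tef and Bhlhe41 were higher by 1.2, 1.01, 0.83 and 0.40, and Cry1 lower at -0.77. Without 6 weeks replicate 3 the log2 fold changes of Nr1d2, Per3, Tef and Bhlhe41 were 0.69, 0.071, 0.083 and 0.25, and that of Nr1d1 was 1.27. In these genes 2 mice stood apart from their own age group. 6 weeks replicate 3 was highest in Dbp, Nr1d2, Per3 and Tef and lowest in the activator Arntl, with 6.50 CPM against 23 to 32.1 in the other 5, and 4 weeks replicate 3 had the highest Nr1d1 and the lowest Cry1 of its age. Without 4 weeks replicate 3 the log2 fold change of Nr1d1 was 2.22 (edgeR adjusted p = 0.0284) and that of Cry1 -1.01 (edgeR adjusted p = 0.0651). The hour at which each animal was killed is not given in the sources used here.

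The E-box CACGTG, through which the activators of the clock bind, is shown in the window before Ciart because this gene has 3 of them. It was present on either strand in 8.09% of genes with a promoter, and in 5 of the 16 clock genes that had one: Per1, Cry1, Tef, Bhlhe41 and Ciart. Capitals mark the matches, and the window lies within a gene annotated on the opposite strand.
Ciart (chr3:95882252-95882478, - strand): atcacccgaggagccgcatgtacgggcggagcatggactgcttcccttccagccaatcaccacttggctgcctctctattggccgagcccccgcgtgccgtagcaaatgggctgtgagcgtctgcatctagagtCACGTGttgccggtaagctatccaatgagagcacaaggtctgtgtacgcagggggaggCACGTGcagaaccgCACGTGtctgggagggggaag

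Immune genes gave few differences between the ages with all mice in the fit. Over all genes tested, 3.79% were higher and 4.87% lower at an unadjusted p under 0.05. Of 29 macrophage and dendritic cell genes 1 was higher at that p, and of 30 T and NK cell genes none differed. None of 38 interferon-stimulated genes differed, and of 22 B and plasma cell genes 1 was higher. That one was Igkc, the kappa light chain, at 12.1, 1.03 and 1.92 CPM and then 17.0, 7.18 and 53.0 CPM (2.34 ± 0.94, unadjusted p = 0.0267, adjusted p = 0.481), with the ages overlapping, and its log2 fold change was 1.25 without 6 weeks replicate 3. The member of the macrophage list was Lyz1, whose highest value was 5.10 CPM in 6 weeks replicate 2, the library that also held intestinal genes. Between 0 and 4 members of that list were higher at an unadjusted p under 0.05 with a mouse left out, 0 without 6 weeks replicate 2. Of the 22 B and plasma cell genes, 21 had a log2 fold change above 0. Without overlap, 4 were higher and 0 lower, against 8.34% and 9.28% of all genes tested. The B cell list had a median of 1.58, which became 0.34 without 6 weeks replicate 3 and 2.63 without 4 weeks replicate 1. With a mouse left out, between 0 and 10 members were higher at an unadjusted p under 0.05, 0 without 6 weeks replicate 3 and 10 without 6 weeks replicate 2. The log2 fold change of Igkc was 4.10 without 4 weeks replicate 1. Medians of the T and NK cell, interferon and macrophage lists were 0.17, -0.06 and 0.08 with all mice. Without 4 weeks replicate 1 they were 2.15, 0.68 and 0.89, and without 6 weeks replicate 3 they were -1.09, -0.54 and -0.36. Igkc stood at 333 ± 205 CPM by 8 weeks. The adipocyte, intestinal, lymph node stroma, immediate-early and growth hormone lists had no member past that p in either direction, while the hedgehog and prolactin lists had 1 lower member each.

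By size, the largest differences outside the cell cycle among genes without overlap were partly in genes whose annotation makes them uncertain. Tmem254c had 0 counts in all 3 mice of 4 weeks and 28, 134 and 130 counts at 6 weeks, at least 28.0-fold higher against a floor of 3 counts per library, but it has near-identical copies. Gm45234 went from 0 counts in each mouse to 15, 9 and 67 (at least 9.95-fold higher) and overlaps Grcc10 and Atn1, and Gm9747, with 17, 33 and 35 counts and then 0, 0 and 1, overlaps Irs1. Among genes with a level in every mouse, Kcnf1, a modulatory potassium channel subunit, measured 2.47, 1.33 and 2.10 CPM at 4 weeks and 7.29, 5.16 and 6.03 CPM at 6 weeks (1.64 ± 0.28, unadjusted p = 5.64e-05, adjusted p = 0.0574). Kcnf1 remained high afterwards, at 9.61 ± 3.33 CPM at 8 weeks and 9.89 ± 2.38 at 12 weeks. Sptbn5, a spectrin, was at 0.713 ± 0.167 and 2.14 ± 0.451 CPM (1.58 ± 0.38), and Hrh3, the histamine H3 receptor, at 0.524 ± 0.182 and 1.57 ± 0.972 CPM (1.58 ± 0.50). The unnamed gene 3830406C13Rik measured 14.2, 13.5 and 13.2 CPM and then 1.47, 0.973 and 1.62 CPM (-3.34 ± 0.72, unadjusted p = 0.000473, adjusted p = 0.106), the largest decrease among called genes without overlap that had counts in every mouse and a mean of at least 1 CPM. It stood at 9.56 ± 7.62 CPM at 8 weeks. Mtfr2, Lockd, 2700099C18Rik, Ankle1 and Kbtbd6 were lower by log2 fold changes of -1.71, -1.67, -1.64, -1.48 and -1.43, and Gm12992, which overlaps Srsf4, higher by 1.27. Ighg2c, an immunoglobulin heavy chain, was given 1, 0 and 0 and then 1, 3 and 401 counts, so its increase came from 1 mouse.

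Whether these differences were particular to the interval was tested against the 12 and 10 week mice, the last interval of the same length, which shares no mouse with it. The interval from 8 to 10 weeks shares none either and was not tested. The difference between the 6 against 4 week change and the 12 against 10 week change had an adjusted p under 0.05 in 0 genes by edgeR's quasi-likelihood test, while 1226 genes (7.41%) had an unadjusted p under 0.05 and DESeq2 called 49. No gene, on the cell cycle list or outside it, is therefore shown to change only from 4 to 6 weeks by the edgeR fit. Over the 12 against 10 week interval itself 1245 genes (7.52%) had an unadjusted p under 0.05 and none an adjusted p under 0.05. Creld2 had an adjusted p of 0.377 in that test, Kcnf1 0.377, Bcas3 0.401 and Nr1d1 0.401, all from edgeR. The level after 6 weeks varied by gene: Creld2 had 92.6 ± 9.0 CPM at 8 weeks and 68.1 ± 6.17 at 12 weeks, below every mouse of 4 weeks in the mean, and Hba-a1 had 60.6 ± 15.2 and 47.8 ± 8.24 CPM. Oat, in contrast, was back at 58.2 ± 4.38 CPM at 12 weeks, above its 39.8 ± 1.90 CPM at 4 weeks, and Pecam1 at 178 ± 12.6 CPM against 98.8 ± 2.46. Immune RNA was many times higher in the later mice, with T and NK cell genes summing to between 1070 and 1507 CPM at 12 weeks, and its part in these later levels was not tested.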

How the data were processed

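Islet RNA of 15 mice was sequenced after polyA enrichment, and the reads were trimmed, aligned and counted per gene by the authors in the CLC Genomics Workbench at its default settings, on mm10 per the submitters' processing notes. The annotation release and the strand setting are not given in the sources used here. The authors deposited 1 table that holds raw counts of reads per gene (total counts) and TPM values for each mouse, both from that software. 30 further per-sample columns, which hold the same libraries scaled to other units, were not used.

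Counts were analysed with edgeR 4.0.16 in R 4.3.3, with limma 3.58.1. The quasi-likelihood fit took all 15 mice with 1 mean per age, TMM scaling and edgeR's filter on low counts, and 6 was set against 4 weeks. Genes were called at a fold change of at least 1.5 with an unadjusted p under 0.05, the study's threshold, and also at a Benjamini-Hochberg adjusted p under 0.05 over all 16554 genes tested. All p-values of single genes, adjusted or not, are from this fit. Standard errors are the log2 fold change divided by the square root of F. TPM was used only to set levels of different genes side by side. The script was tested on simulated data with known changes. No set test was run: lists are described by counts and medians beside those over all genes.

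The interval, the 30 gene lists and the named genes were chosen with earlier results of these data known. Genes named are those with an adjusted p under 0.05, the 10 largest increases and 10 largest decreases outside the cell cycle among called genes without overlap and with a mean of at least 1 CPM at the higher age, the hormones, and up to 3 genes of smallest p per list. List members named beyond the 3 smallest p values are all those of the list at an unadjusted p under 0.05, or are said to be chosen after their values were seen. Some genes that meet these rules are not reported here.

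The replicate numbers are names only: deviations of same-numbered mice from their age means had correlations of -0.50, -0.05 and -0.46, so the mice were not treated as pairs. The samples are separate mice per the labels. Promoter windows came from RefSeq on GRCm38.p6, and motifs were searched on both strands as exact letters. Alternatives were other scalings, no filter, the 2 ages alone, edgeR's exact test, DESeq2 1.42.0, a replicate block and each mouse left out. The counts of list members, and the clock gene and Igkc values, with a mouse left out were added after seeing the data.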

Additional observations from a re-analysis of the deposited data

How the results depend on the processing

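The number of genes past the fold and unadjusted p threshold stayed within 1.5 times the 480 called in every alternative run, between 425 and 631, and the higher share of them, 39.79%, was 33.41% with the 2 ages alone and between 30.47% and 47.35% with a mouse left out. The 15 genes with an adjusted p under 0.05 became 10 with DESeq2's size factors, with library totals or without the filter, 141 with the 2 ages alone (14 of the 15 shared), 260 with edgeR's exact test and 249 with DESeq2 (all 15 shared in both), and 5 with the replicate block, all among the 15. With a mouse left out they ranged from 0 to 6: 0 without 6 weeks replicate 2, where 1128 genes had an unadjusted p under 0.05, 1 without 4 weeks replicate 2, 2 without 4 weeks replicate 3 (1 of them among the 15), 4 without 4 weeks replicate 1 or 6 weeks replicate 3, and 6 without 6 weeks replicate 1, of which 2 were among the 15 and 4 were higher at 6 weeks. The cause was not tested, beyond the smaller number of mice. The difference of the intervals, with 0 genes, gave 49 with DESeq2, and between 0 and 1 with a mouse left out (1 without 4 weeks replicate 3 and 1 without 12 weeks replicate 3). Named genes that did not pass the threshold changed sign when single mice were left out, and their ranges over the left-out mice were -0.045 to 0.00040 for Ins1, which was above 0 without 4 weeks replicate 3, and -0.055 to 0.069 for Sst, at -0.038 without 4 weeks replicate 2 and -0.055 without 6 weeks replicate 1. Without 6 weeks replicate 1, Klk1 was at -0.023 (range to 2.18), Clps at -0.040 (to 2.25), Reg2 at -0.83 (to 3.90) and Reg3d at -1.61 (to 3.0). Prf1 was at -0.87 without 6 weeks replicate 3 (to 3.47), Gzmb ranged from -1.70 to 1.0, the latter without 4 weeks replicate 1, and Agr2 from -0.82, without 6 weeks replicate 2, to 2.94. Of the other values of named genes, 1346 kept their direction and side of the threshold, 104 lost it and 49 gained it. List medians moved by more than the spread between mice in 11 of 390 cases, all with a mouse left out. Genes under about 1 CPM rest on few counts, and changes in them are limited by depth.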

Other observations

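Some genes on no list, chosen after their values were seen, differed without overlap between the ages, none with an adjusted p under 0.05. Angptl7, a secreted angiopoietin-like protein, measured 30.2, 16.5 and 31.4 CPM at 4 weeks and 63.0, 48.6 and 76.9 CPM at 6 weeks (log2 fold change 1.27 ± 0.25, adjusted p = 0.0803 in edgeR's quasi-likelihood test). Slc38a7, an amino acid transporter, measured 19.1 ± 0.234 and 26.1 ± 1.93 CPM (0.45 ± 0.08, adjusted p = 0.0574). Enpep, an aminopeptidase that cleaves angiotensin II, was higher by 0.48 ± 0.10 on the log2 scale, and Npr1, the receptor of atrial natriuretic peptide, by 0.45 ± 0.10. The neural transcription factor Scrt1 measured 14.5 ± 2.81 and 26.3 ± 3.48 CPM (0.86 ± 0.20, adjusted p = 0.148). At 12 weeks Enpep stood at 35.8 ± 3.53 CPM, above its 21.7 ± 1.79 CPM at 4 weeks, whereas Slc38a7 was at 17.9 ± 1.01 CPM, close to its level at 4 weeks.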
